A study of Homo sapiens with 11 samples.

Results

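Ikaros peaks were described at 52 genes for splicing factors and heterogeneous nuclear ribonucleoproteins (hnRNPs), chosen by symbol from the 20046 protein-coding genes of GENCODE release 44. They were the 12 SRSF genes, 27 HNRNP genes, 9 SF3A and SF3B genes, and U2AF1, U2AF2, ZRSR2 and SF1. Of these, 6 are copies of other HNRNP genes (HNRNPCL1 to HNRNPCL4, HNRNPA1L2 and HNRNPA1L3), and HNRNPUL2-BSCL2 is a read-through gene at the start of HNRNPUL2, so 45 remain without these 7. The data were chromatin immunoprecipitation sequencing (ChIP-seq) peaks of Ikaros, the zinc finger transcription factor encoded by IKZF1, in established lines of human B-cell precursor acute lymphoblastic leukemia. JM1 cells were untreated or had been given 20 µM CX-4945, an inhibitor of the kinase CK2, for 1 day. The REH and 697 lines were studied without treatment, and Nalm6 with CX-4945 as for treated JM1. There was 1 peak list per condition, so no difference between lists has a replicate check, no test was possible and no p-value is given. JM1 and REH were immunoprecipitated with antibody A303-516A from Bethyl and the other lines with an affinity-purified anti-Ikaros antibody, so line and antibody cannot be told apart between these pairs.

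Introns are removed by the spliceosome, which recognises the branch point and the 3′ end of each intron early on. SF1 first holds the branch point, U2AF2 the pyrimidine-rich tract and U2AF1 the AG at the intron's end. The U2 small nuclear ribonucleoprotein (snRNP), whose SF3A and SF3B subunits clamp the branch point, then replaces SF1. SR proteins, encoded by the SRSF genes, bind exonic enhancers and recruit these factors, whereas hnRNPs coat nascent RNA and often repress the sites they bind. Genes of the early steps (SF3B1, SRSF2, U2AF1 and ZRSR2) are recurrently mutated in myeloid blood cancers. Ikaros is a regulator of lymphoid development that is often lost or altered in this leukemia, and CK2 phosphorylates it.

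The list lengths were unequal, with 37448 and 88692 peaks in untreated and treated JM1, 83563 in REH, 70894 in Nalm6 and 19652 in 697. Read depth was not analysed here. The lowest score was 10 in every list, and the sources used here do not give what the authors' score measures, so scores were ranked within a list as a percentile. Markers of the B lineage had a peak near a start in 8 of 8 genes in both JM1 lists and in Nalm6, 7 of 8 in REH and 2 of 8 in 697. Of 5 T cell genes, CD8A had one in all 5 lists and CD3D in treated JM1 alone, and CD3E, CD3G and CD2 had none. Of 5 myeloid genes, 2 and 4 had one in untreated and treated JM1, 4 in REH, 4 in Nalm6 and 1 in 697. Of all protein-coding genes, 58.7% and 81.2% had a peak within 1000 bp of a start in untreated and treated JM1. The shares were 81.7% in REH, 74.3% in Nalm6 and 49.5% in 697. These are peak positions and not expression levels.

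The DNA just before the start site is shown for 8 genes on which the results turn. HNRNPUL1, HNRNPL and HNRNPF had the highest-scored peaks of the HNRNP family in untreated JM1, treated JM1 and REH. SF1 had the highest score of all 52 genes in 697 and Nalm6. SRSF4 and ZRSR2 had a peak in treated but not in untreated JM1, SF3B1 is the most often mutated of the set, and U2AF1 had no peak in any list. Each line gives the 250 bases before the RefSeq start (GRCh38.p14), 5′ to 3′ on the gene's strand. Capitals mark matches to GGGAA or its complement TTCCC, the core of the sequence that Ikaros zinc fingers bind, and run to 6 letters where the longer form TGGGAA or TTCCCA is present.
HNRNPUL1 chr19:41262307-41262556, plus strand: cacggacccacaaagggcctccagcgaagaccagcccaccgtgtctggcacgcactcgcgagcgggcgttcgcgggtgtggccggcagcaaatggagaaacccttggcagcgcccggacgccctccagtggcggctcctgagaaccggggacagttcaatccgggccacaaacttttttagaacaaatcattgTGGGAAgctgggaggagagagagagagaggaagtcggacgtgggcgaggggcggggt
HNRNPL chr19:38852348-38852597, minus strand: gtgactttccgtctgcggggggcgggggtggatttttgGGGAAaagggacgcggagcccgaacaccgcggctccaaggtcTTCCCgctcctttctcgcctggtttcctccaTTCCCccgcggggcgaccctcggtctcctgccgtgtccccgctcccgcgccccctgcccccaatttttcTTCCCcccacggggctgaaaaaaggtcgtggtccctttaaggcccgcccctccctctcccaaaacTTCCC
HNRNPF chr10:43397278-43397527, minus strand: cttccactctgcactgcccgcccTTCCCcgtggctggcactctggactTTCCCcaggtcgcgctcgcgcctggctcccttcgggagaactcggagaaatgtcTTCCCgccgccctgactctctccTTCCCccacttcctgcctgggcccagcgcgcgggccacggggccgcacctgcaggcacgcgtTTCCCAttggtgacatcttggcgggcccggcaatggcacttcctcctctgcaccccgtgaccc
SF1 chr11:64778543-64778792, minus strand: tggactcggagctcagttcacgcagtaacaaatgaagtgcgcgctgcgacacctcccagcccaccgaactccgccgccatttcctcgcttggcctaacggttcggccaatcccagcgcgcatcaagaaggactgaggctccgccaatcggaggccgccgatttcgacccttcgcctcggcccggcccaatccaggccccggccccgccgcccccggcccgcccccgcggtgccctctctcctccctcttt
SRSF4 chr1:29181901-29182150, minus strand: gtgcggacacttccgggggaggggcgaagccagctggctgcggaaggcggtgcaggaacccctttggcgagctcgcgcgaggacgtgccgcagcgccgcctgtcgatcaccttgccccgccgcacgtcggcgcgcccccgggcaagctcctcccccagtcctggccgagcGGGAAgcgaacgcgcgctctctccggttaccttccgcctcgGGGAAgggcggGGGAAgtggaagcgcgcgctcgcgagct
SF3B1 chr2:197435029-197435278, minus strand: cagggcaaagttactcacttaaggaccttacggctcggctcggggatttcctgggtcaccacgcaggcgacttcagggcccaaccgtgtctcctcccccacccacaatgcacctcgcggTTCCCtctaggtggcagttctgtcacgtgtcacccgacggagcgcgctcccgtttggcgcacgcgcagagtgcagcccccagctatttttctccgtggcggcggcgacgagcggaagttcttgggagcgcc
ZRSR2 chrX:15790234-15790483, plus strand: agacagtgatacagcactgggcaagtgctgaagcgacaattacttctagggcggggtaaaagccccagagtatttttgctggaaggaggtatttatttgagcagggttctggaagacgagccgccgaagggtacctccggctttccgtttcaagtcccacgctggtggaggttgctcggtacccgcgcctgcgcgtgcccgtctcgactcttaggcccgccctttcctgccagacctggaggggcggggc
U2AF1 chr21:43107571-43107820, minus strand: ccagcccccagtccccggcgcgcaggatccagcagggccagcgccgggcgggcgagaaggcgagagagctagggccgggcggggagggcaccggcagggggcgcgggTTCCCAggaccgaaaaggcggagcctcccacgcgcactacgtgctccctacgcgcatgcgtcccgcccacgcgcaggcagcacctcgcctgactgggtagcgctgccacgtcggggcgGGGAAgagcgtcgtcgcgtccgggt
The printed stretch of HNRNPL and that of HNRNPF each held 5 core matches, SRSF4 had 3 and U2AF1 had 2. There was 1 each in HNRNPUL1 and SF3B1, and none in SF1 or ZRSR2. The longer form occurred once each in HNRNPUL1, HNRNPF and U2AF1. Peaks in all 5 lists overlapped the printed stretch of HNRNPL and that of HNRNPF. For SF1 it was all lists but untreated JM1, as for SRSF4, and for SF3B1 and HNRNPUL1 all but 697. ZRSR2 was overlapped in treated JM1 and REH, and U2AF1 in none. U2AF1, with 2 matches, had no peak, and SF1, with none, was overlapped in 4 lists. Most of the sequence around the U2AF1 start also occurs elsewhere in the genome, as described below. These genes were chosen partly by their peaks, so the counts do not show whether matches go with peaks.

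Over the whole set, the promoter windows of 300 bases (250 before to 50 after a RefSeq start) numbered 62 and matched 47 of the 52 genes. HNRNPA1, SRSF2, SF3B3, HNRNPCL3 and HNRNPA1L3 had none. TGGGAA on either strand was present in 16 of the 62 windows (25.8%), against 22.7% of 21613 windows of all protein-coding genes. The core GGGAA, which also counts every TGGGAA, was present in 39 (62.9%) against 66.6%. Median GC content was 64.0% against 62.3%, and the median number of CpG dinucleotides per window was 29 against 21. The highest-scored peaks within 1000 bp of a start were then read, each peak counted once where genes shared it. In the 300 bases at the peak's centre, TGGGAA was present in 8 of 33 peaks in untreated JM1 (24.2%) against 19.8% of 10461 peaks of all genes. It was in 7 of 44 (15.9%) against 21.8% in treated JM1, 7 of 44 (15.9%) against 22.0% in REH, 2 of 26 (7.69%) against 13.1% in 697 and 4 of 37 (10.8%) against 19.8% in Nalm6. Over whole peaks the order of the shares differed, with 54.5% against 56.5% in untreated JM1, 75.0% against 73.6% in treated JM1, 75.0% against 75.2% in REH, 46.2% against 36.5% in 697 and 48.6% against 62.3% in Nalm6. The direction against all genes therefore depended on the stretch read in untreated JM1, treated JM1 and 697, and the counts are small. The core was above the share of all genes in the central 300 bases in untreated JM1 (75.8% against 65.2%), treated JM1 (77.3% against 66.2%), REH (81.8% against 66.0%) and 697 (73.1% against 59.2%), but not in Nalm6 (62.2% against 64.2%). A match is a description of letters in a window, and none of these shares was tested.

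Most splicing genes had an Ikaros peak at a start. A gene was counted when any part of a peak reached to within 1000 bp of a transcription start site (TSS) of any of its transcripts, called a TSS peak below. In untreated JM1, 34 of the 52 genes had one (65.4%, 95% exact Clopper-Pearson interval 50.9 to 78.0%), against 58.7% of all protein-coding genes. In treated JM1 it was 45 (86.5%, 74.2 to 94.4%) against 81.2%, and in REH the same 45 genes against 81.7%. The 697 list had one at 27 (51.9%, 37.6 to 66.0%) against 49.5%, and the Nalm6 list at 38 (73.1%, 59.0 to 84.4%) against 74.3%. The shares of all genes lay inside the intervals for the 52 genes in each of the 5 lists. These intervals cover counting error only, and genes that share a start are not independent. With the authors' gene name and promoter class in place of distance, the share of all genes was below the interval in treated JM1 (34 of 52, 65.4%, 50.9 to 78.0%, against 45.6%) and REH (34, against 44.8%). With each list limited to its 19652 top-scored peaks it was below it in REH (41 of 52, 78.8%, 65.3 to 88.9%, against 62.1%). Without the copies and the read-through gene the counts were 33, 44, 44, 26 and 37 of 45 in untreated JM1, treated JM1, REH, 697 and Nalm6, or 73.3%, 97.8%, 97.8%, 57.8% and 82.2%. The share of all genes was then below the interval in treated JM1 (88.2 to 99.9%, against 81.2%) and in REH (the same interval, against 81.7%). The shares of all genes still include copies and read-through genes, so these are not like for like. The 52 genes had more start sites to be found by, with a median of 8 per gene against 5, and with the primary start alone the counts, in the same order, were 33, 45, 45, 26 and 37 of 52 against 53.1%, 78.0%, 78.8%, 45.1% and 69.9% of all genes.

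**Figure D1:**
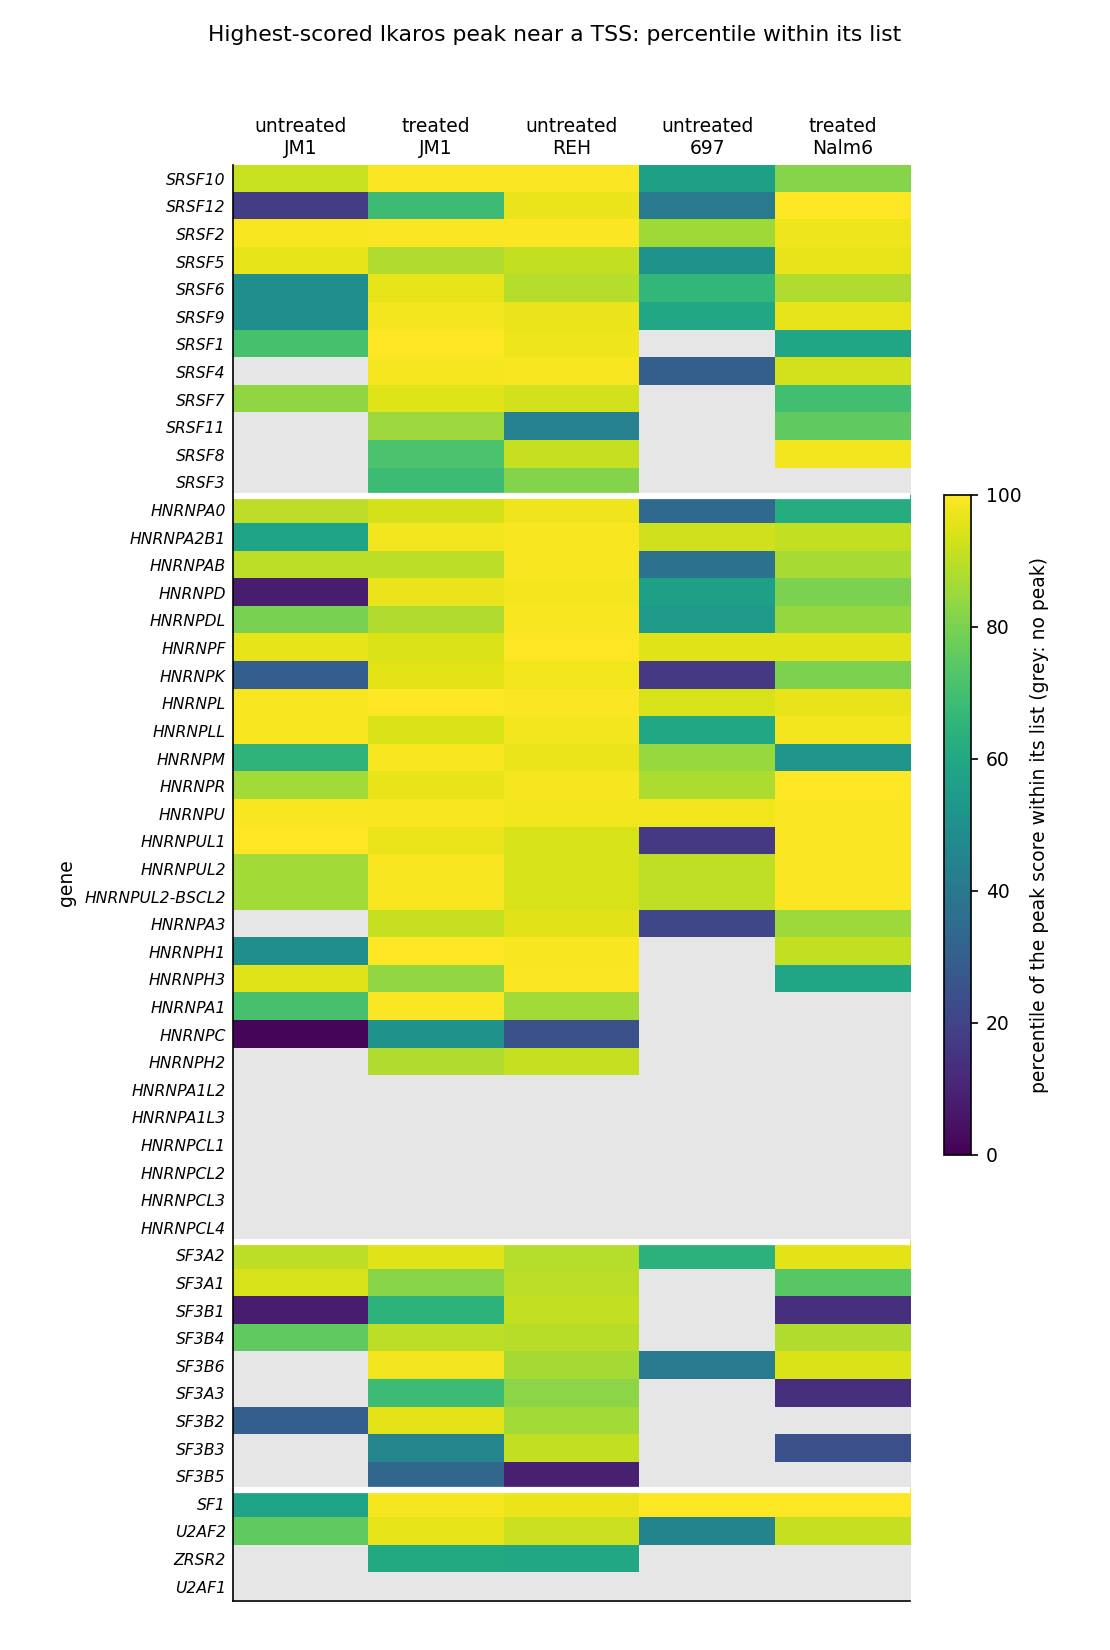
Each row is a gene and each column a peak list, and colour gives the percentile, within that list, of the score of the gene's highest-scored TSS peak (0 to 100, grey where there was no TSS peak). White lines part the SRSF, HNRNP, SF3A and SF3B, and remaining genes, and 24 rows are coloured in all 5 columns and 7 are grey throughout.

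Every gene of the set with a TSS peak in untreated JM1, 697 or Nalm6 also had one in treated JM1 and in REH. Over all genes, 11662 of the 11775 with one in untreated JM1 also had one in treated JM1. For the smaller patterns of lists named below, no share of all genes is given. A TSS peak was present in all 5 lists at 24 genes (46.2%) against 41.7% of all genes. By family these were 15 of 27 HNRNP genes, 6 of 12 SRSF genes, 1 of 9 SF3A and SF3B genes and 2 of the 4 remaining genes. Another 7 lacked one in 697 alone (HNRNPH1, HNRNPH3, SF3A1, SF3B1, SF3B4, SRSF1 and SRSF7), and 3 lacked one in untreated JM1 alone (HNRNPA3, SF3B6 and SRSF4). HNRNPA1, HNRNPC and SF3B2 had one in both JM1 lists and REH. SF3A3, SF3B3, SRSF8 and SRSF11 had one in treated JM1, REH and Nalm6, and HNRNPH2, SF3B5, SRSF3 and ZRSR2 in treated JM1 and REH. No TSS peak was found in any list at 7 genes (13.5%) against 14.7% of all genes, and 6 of the 7 are the copies. A TSS peak in both treated JM1 and REH was present at 45 genes, against 78.5% of all genes.

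Among genes with a TSS peak, the median score rank of the splicing genes was above that of all genes by more than its counting interval in REH alone. The median percentile of the highest-scored TSS peak was 81.6 against 75.7 for all genes with one in untreated JM1, 95.0 against 90.2 in treated JM1, 93.8 against 89.4 in REH and 90.8 against 86.2 in Nalm6. In 697 it was 59.4 against 68.2. The 95% intervals of these medians, from the order of the genes' values, were 41.3 to 87.5 in 697, 91.0 to 97.6 in REH and 81.8 to 96.6 in Nalm6. They were 58.2 to 90.2 and 90.2 to 97.2 in the JM1 lists, untreated and treated. The intervals held the median of all genes in untreated JM1, Nalm6 and 697, and in treated JM1 it was equal to the lower bound. In REH 33 of 45 genes stood above the median of all genes, whereas in untreated JM1 it was 18 of 34, in treated JM1 28 of 45, in Nalm6 23 of 38 and in 697 10 of 27. The HNRNP genes had a median of 98.0 in REH. The SF3A and SF3B genes had lower medians than the SRSF and HNRNP genes in every list, at 75.7 and 82.3 in untreated and treated JM1, 88.9 in REH, 74.0 in Nalm6 and 52.7 in 697. The medians of 697 and of untreated JM1 rest on few genes for this family, with 2 and 5 of its 9 genes having a TSS peak there. The plot of percentiles by list shows the wide spread within each list, which reaches from 1.91 to 99.9 in untreated JM1.

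**Figure D2:**
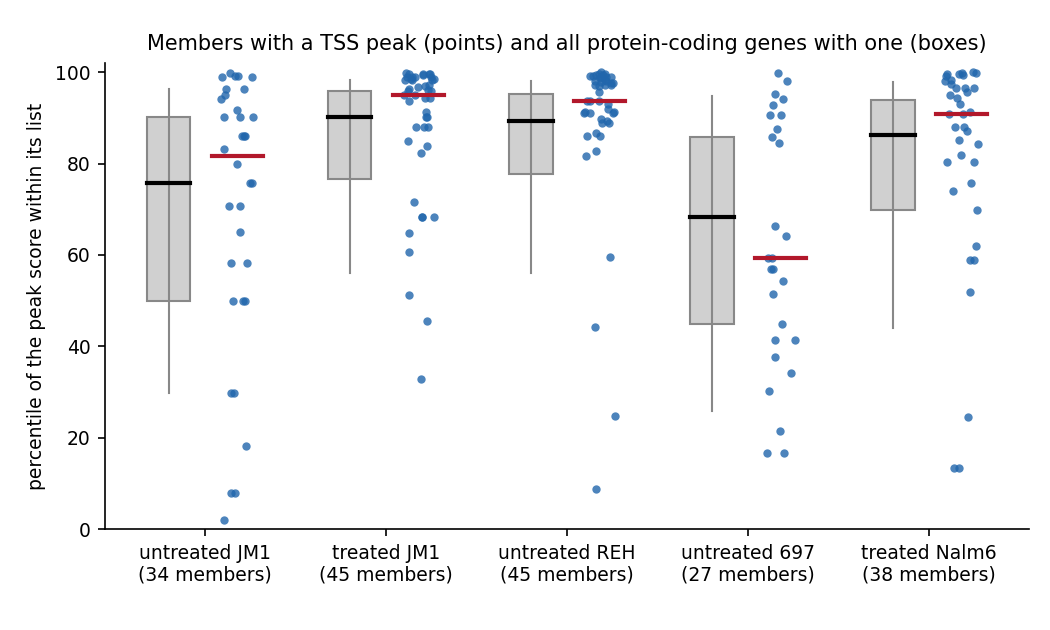
The vertical axis is the percentile of the peak score within its list. Blue points are splicing and hnRNP genes with a TSS peak and red bars their medians, and grey boxes span the quartiles of all protein-coding genes with a TSS peak, with black medians and lines from the 10th to the 90th percentile. The red bar lies above the black one in every list except 697.

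SF1, the branch point protein, had higher scores than U2AF2, U2AF1 and ZRSR2 in every list but untreated JM1, where U2AF2 had 19. Its score was 16 and 82 in untreated and treated JM1, 80 in REH, 106 in Nalm6 and 111 in 697. The peak ranked 26 of 19652 in 697 and 33 of 70894 in Nalm6, the lists not made with the Bethyl antibody. In the Bethyl lists it ranked 14256 of 37448 in untreated JM1 (percentile 58.2), 1283 of 88692 in treated JM1 and 2463 of 83563 in REH. In 697 it covered chr11:64777717-64778624 and in Nalm6 chr11:64777602-64778735, across the primary start at 64778542. The untreated JM1 peak, chr11:64777746-64778480, began 62 bp inside the gene and left the printed promoter stretch uncovered.

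U2AF2, which binds the pyrimidine tract, had scores of 19 and 56 in untreated and treated JM1, 53 in REH, 45 in Nalm6 and 21 in 697. The treated JM1 and REH peaks were 8125 and 8359 bp wide and also lay within 1000 bp of a start of CCDC106, so they cannot be given to 1 of the genes. Its partner U2AF1 had no peak within the gene in any list. The nearest peak was 70817 and 63860 bp away in untreated and treated JM1, 62775 bp in REH, 69778 bp in Nalm6 and 117508 bp in 697, and in each list it was named for PKNOX1. ZRSR2, the U2AF1 relative that acts on introns of the minor class, had a peak of score 20 in treated JM1 (chrX:15790205-15790577) and of 24 in REH (chrX:15790350-15790760). Both lay across the start and at middling percentiles, 60.6 and 59.5.

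SF3B1, the SF3B subunit that grips the branch point helix and the most often mutated splicing gene, had low-ranked peaks in untreated JM1 and in Nalm6. Its score was 11 and 21 in untreated and treated JM1, 50 in REH and 13 in Nalm6, with no TSS peak in 697. The percentiles were 7.90 and 64.7 in untreated and treated JM1, 91.0 in REH and 13.4 in Nalm6, so REH alone held it among high-scored peaks. The untreated JM1 peak ended 9 bp past the start, and those of treated JM1, REH and Nalm6 lay across it.

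SRSF2, an SR protein of exonic enhancers, stood high in every list. Scores were 39 and 106 in untreated and treated JM1, 125 in REH, 61 in Nalm6 and 42 in 697, and the percentiles were 98.9, 99.3, 99.5, 97.3 and 85.7 in that order. Its start lies 10 bp from that of MFSD11 on the opposite strand, so each peak was near both genes, and the authors named the 697 peak for MFSD11. That peak (chr17:76736367-76736895) lay 436 to 964 bp into SRSF2, while the peaks of the other 4 lists covered the start.

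**Figure D3:**
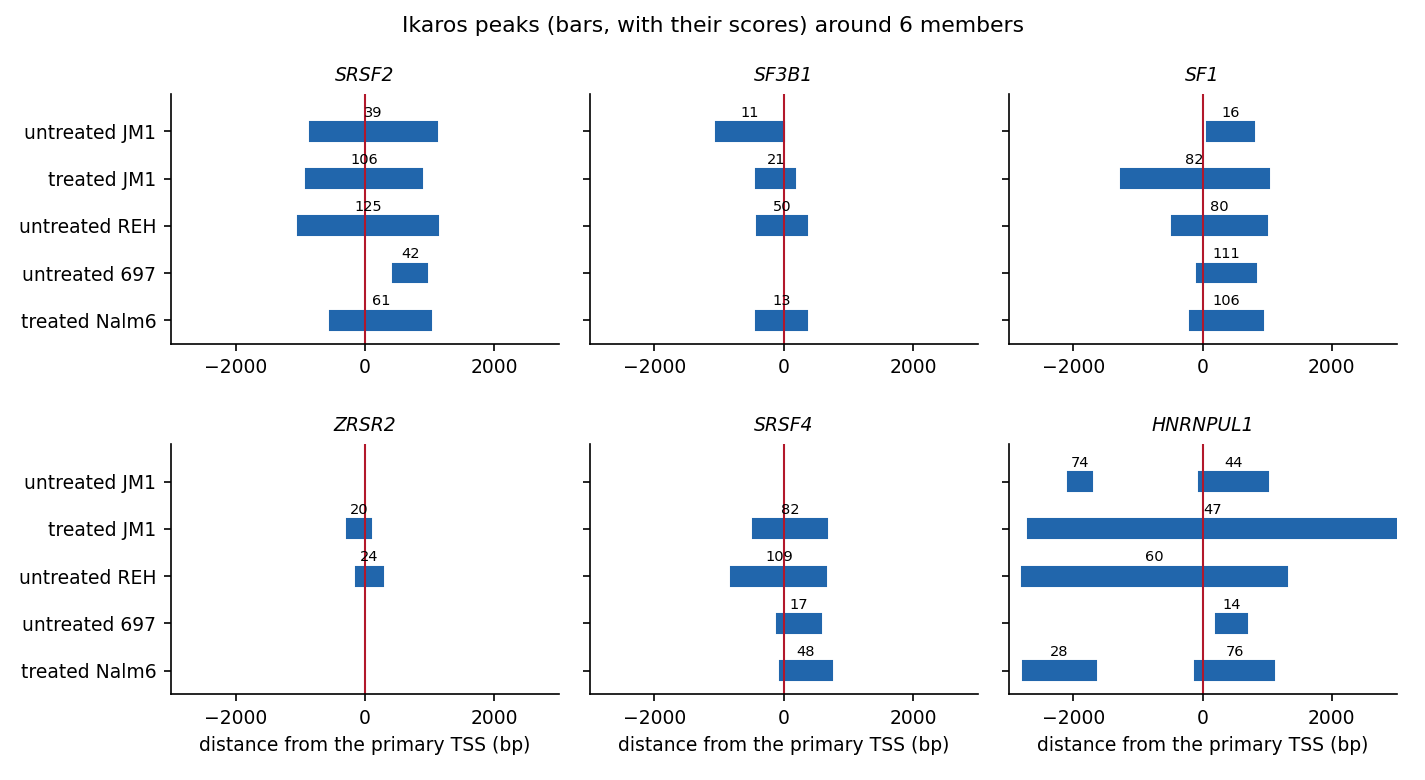
Bars are peaks drawn to scale by distance from the primary TSS in bp (red line, 0; positive values run into the gene), 1 row per list, with the authors' score above each bar. Bars are clipped at the panel edges, and ZRSR2 has bars in treated JM1 and REH alone, SF3B1 none in 697 and SRSF4 none in untreated JM1.

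The other SRSF genes all had a TSS peak in treated JM1 and in REH, as did SRSF2, so 12 of 12 were counted there (against 81.2% and 81.7% of all genes), with 8 in untreated JM1 (against 58.7%), 7 in 697 (against 49.5%) and 11 in Nalm6 (against 74.3%). SRSF1, the founding SR protein, had the highest score of the family in treated JM1, at 133, and scores of 18 in untreated JM1, 85 in REH and 23 in Nalm6 with none in 697. SRSF12, whose protein counteracts other SR proteins, led in Nalm6 at 90, against 12 and 22 in untreated and treated JM1, 81 in REH and 20 in 697. Both genes therefore changed places within the family from list to list. SRSF10, a splicing repressor when dephosphorylated, had scores of 25, 120, 121, 25 and 34 in the order untreated JM1, treated JM1, REH, 697 and Nalm6. At SRSF5 the lists differed in which start held the highest-scored peak. In both JM1 lists it was the primary start at 69767142, with scores of 30 untreated and 33 treated. In REH, 697 and Nalm6 it was a start far upstream, where the peaks had scores of 50, 23 and 58 and began at 69726760, 69726684 and 69726677 on chromosome 14. Treated JM1 also had an upstream peak, of score 17, and REH and Nalm6 had peaks of 43 and 32 at the primary start.

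Among the HNRNP genes, the leader differed in every list. HNRNPL, which binds CA-rich RNA, led in treated JM1 with a score of 201, at rank 124 of 88692, and had 41 in untreated JM1, 124 in REH, 55 in 697 and 58 in Nalm6. HNRNPF, a protein of G-rich RNA, led in REH at 197 and had 30 in untreated JM1, 46 in treated JM1, 58 in 697 and 53 in Nalm6. The 30 was from a peak 1076 to 1804 bp past the primary start, and the other lists' scores were from a start further inside the gene. Untreated JM1 had a peak of 27 there. HNRNPU, which ties RNA to chromatin, led in 697 at 71, with 39 and 93 in untreated and treated JM1, 88 in REH and 78 in Nalm6. All these genes had a TSS peak above the 94th percentile in each list, HNRNPU never below 97.8. HNRNPR, a relative of SYNCRIP, led in Nalm6 at 87, with 22, 60, 104 and 44 in untreated JM1, treated JM1, REH and 697. HNRNPLL, known for CD45 splicing in lymphocytes, had 42 and 46 in untreated and treated JM1, 93 in REH, 67 in Nalm6 and 26 in 697. HNRNPC, which binds uridine tracts, was at the other end: its scores were 10, 18 and 16 in untreated JM1, treated JM1 and REH, with percentiles of 1.91, 51.1 and 24.8, and 697 and Nalm6 had none.

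HNRNPUL1, an HNRNPU-like protein, led in untreated JM1 and, in REH, had more peaks than any other of the 52 genes in any list. Its highest-scored TSS peak had a score of 74 and 61 in untreated and treated JM1, 60 in REH, 76 in Nalm6 and 14 in 697. The untreated JM1 peak, chr19:41262292-41262654, was 363 bp wide, ranked 36 of 37448 and covered the whole printed stretch with its TGGGAA. The 61 of treated JM1 was from an 8936-bp peak near the gene's end (chr19:41301710-41310645), which also reached a start of CCDC97, and the treated peak over the printed stretch, chr19:41261671-41267535, had 47. The Nalm6 peak over that stretch had 28, and its 76 was at the primary start. REH had 9 peaks in or assigned to HNRNPUL1, of which 5 were more than 1000 bp from any start.

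The SF3A and SF3B genes had TSS peaks at 5 and 9 of 9 genes in untreated and treated JM1, 9 in REH, 7 in Nalm6 and 2 in 697. The shares of all genes were 58.7% and 81.2% in untreated and treated JM1, 81.7% in REH, 74.3% in Nalm6 and 49.5% in 697. In 697 these were SF3A2 (28) and SF3B6 (20), which had the highest scores of the family in Nalm6 (55) and in treated JM1 (79) respectively. SF3A1, the largest subunit of SF3A, led in untreated JM1 with 27, and had 28 after treatment there, 47 in REH and 29 in Nalm6. SF3B6, which lies close to the branch point adenosine, had 41 in REH and 51 in Nalm6 and none in untreated JM1. SF3B1 and SF3B3 led in REH, at 50 each. SF3A2's peaks in treated JM1 and REH were 17624 and 30428 bp wide, reached from DOT1L and were named for it, so their scores of 49 and 45 cannot be given to SF3A2 alone. The 28 of 697 was from a peak centred 10612 bp past the primary start and named for AMH, and the 697 peak at the SF3A2 start had 21. SF3B5, the smallest subunit, had 15 in treated JM1 and 13 in REH, the lowest scores of the 52 genes in both lists.

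Whether CX-4945 alters where Ikaros binds in JM1 was a question of the series' design, and at splicing genes the treated list held every gene of the untreated one. A TSS peak was present in both JM1 lists at 34 genes, against 58.2% of all genes. It was present in treated and not in untreated JM1 at 11 genes (21.2%, interval 11.1 to 34.7%) against 23.0% of all genes, and in untreated and not in treated JM1 at 0 (0.0%, up to 6.85%) against 0.564%. The 11 were HNRNPA3, HNRNPH2, SF3A3, SF3B3, SF3B5, SF3B6, SRSF3, SRSF4, SRSF8, SRSF11 and ZRSR2. Set against the genes with no TSS peak in untreated JM1, this was 11 of 18 (61.1%, 35.7 to 82.7%) beside 55.7% of 8271. With the 6 copies left out it was 11 of 12 (91.7%), and U2AF1 was the other gene. The 55.7% still includes copies of other genes, so it is not like for like with the 11 of 12. The shares of all genes lay inside the intervals printed in this paragraph, and no interval is given for the 11 of 12. Because the treated list was the longer, each list was also limited to its 19652 top-scored peaks, which left 27 genes in untreated JM1 (against 45.2% of all genes) and 36 in treated JM1 (against 60.4%). Of these, 9 were in treated alone (17.3%, against 21.0%) and 0 in untreated alone (against 5.86%). The number depended on the score: with a score of at least 20 the untreated count was 18 (34.6%, against 26.5% of all genes) and the treated-alone count 24 (46.2%, against 45.7%). With the authors' gene name and promoter class, 6 genes were in untreated alone (11.5%, against 9.26%). Under both of these settings the shares of all genes moved in the same direction as those of the set.

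SRSF4, an SR protein with paired RNA-binding domains, and SF3B6 had the highest treated-alone peaks, with scores of 82 and 79 at percentiles 98.5 and 98.4. HNRNPA3, a relative of HNRNPA1, had 38 and HNRNPH2, a relative of HNRNPF, 33. SRSF11 had 30, SRSF8 23, SRSF3 and SF3A3 22 each, ZRSR2 20, SF3B3 17 and SF3B5 15. The treated-alone peaks were therefore mostly modest, with a median percentile of 71.6 in the treated list against 96.2 for the genes with a TSS peak in both. For all genes these medians were 78.8 and 91.8. The treated-alone peaks of the set were also narrower, with a median of 696 bp against 1049 bp for the treated-alone peaks of all genes. The HNRNPH2, SF3B6 and SF3B3 peaks were named by the authors for the neighbours GLA, FAM228B and COG4.

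At the 34 genes with a TSS peak in both lists, the percentile was higher in treated JM1 at 28 (82.4%), against 79.4% of 11662 genes. The median difference, treated minus untreated, was 13.0 points, beside 13.6 for all genes. These are ranks in lists of 37448 and 88692 peaks, and ranks from lists of unequal length do not show a change at a gene. The values of some genes are therefore set side by side. HNRNPD, a protein of AU-rich mRNA decay, stood at percentile 7.90 untreated and 97.2 treated (score 11 and 63). HNRNPK, which binds C-rich RNA, and SF3B2 both stood at 29.8 and 95.8 (13 and 53). At SF3B2 the untreated peak was 548 bp wide at the start, whereas the treated one was 7495 bp wide, running mostly upstream of the start, named for GAL3ST3 and near a start of that gene. HNRNPH1 stood at 49.8 and 99.7 (15 and 140) and HNRNPA1, a repressor of exon inclusion, at 70.8 and 99.6 (18 and 127). The 6 genes with a lower percentile in treated JM1, untreated value first, were SF3A1 (94.1 and 82.3), HNRNPH3 (95.0 and 83.7), SRSF5 (96.3 and 88.1), HNRNPLL (99.2 and 94.3), HNRNPUL1 (99.9 and 97.0) and HNRNPF (96.3 and 94.3). Each of these 6 was already above the 94th percentile untreated. At HNRNPUL1 and HNRNPF the untreated and treated values are from peaks at different starts. At the HNRNPF start used in treated JM1, the untreated list had a peak of score 27 at percentile 94.1, against 94.3 treated. The treated peak over the HNRNPUL1 start used in untreated JM1 stood at 94.5.

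**Figure D4:**
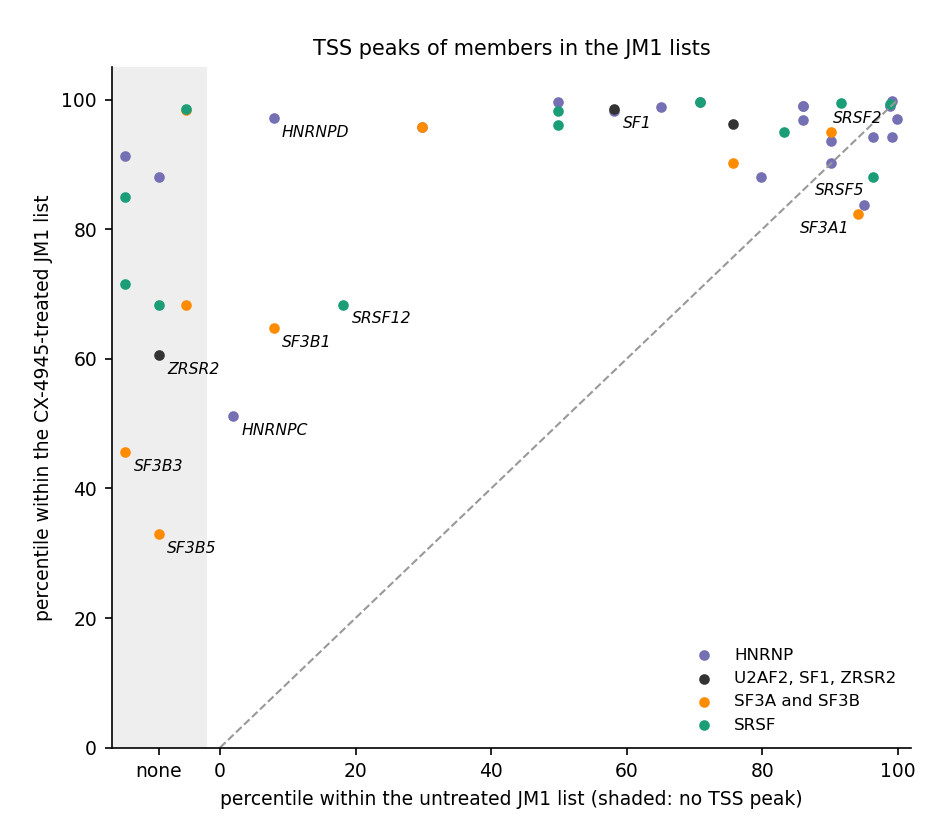
Each point is a gene with a TSS peak in treated JM1, placed by the percentile of its highest-scored TSS peak in the untreated list (horizontal) and the treated list (vertical), with colour for the family. The shaded strip holds the 11 genes with none in the untreated list, spread sideways for legibility, and 28 of the other 34 points lie above the dashed line of equal percentiles (some points coincide).

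By position, 44 of the 46 untreated JM1 peaks near a start of these genes were overlapped by at least 1 bp by a treated peak (95.7%, 85.2 to 99.5%), against 96.2% of 14893 such peaks of all genes. In the other direction it was 41 of 62 treated peaks (66.1%, 53.0 to 77.7%) against 59.0% of 22846. The untreated share fell to 32.6% when the overlap had to be 50% of both peaks, and the share of all genes under that rule is not given. Treated peaks were the wider ones, with a median width of 1657 bp over the highest-scored TSS peaks against 976 bp untreated. Over all genes the treated peaks were wider too, at 1658.5 against 1034 bp with each shared peak counted once.

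Sharing of starts between genes limits what a peak can be assigned to. Of the 52 genes, 16 (30.8%) had a start within 1000 bp of that of a protein-coding gene on the opposite strand, against 17.7% of all genes. They included HNRNPA1 with CBX5 (60 bp apart), HNRNPA2B1 with CBX3 (115 bp), HNRNPK with RMI1 (167 bp), SRSF7 with GEMIN6 (40 bp), SF3A1 with CCDC157 (82 bp) and SF3A2 with PLEKHJ1 (90 bp). CBX3 and CBX5 encode heterochromatin proteins. Of these 16, a TSS peak was present at 12 (untreated JM1), 16 (treated JM1), 16 (REH), 9 (697) and 14 (Nalm6), beside 69.2%, 95.2%, 95.9%, 53.0% and 85.4% of all genes with such a neighbour. At HNRNPA2B1 the highest-scored peak was named for CBX3 in all 5 lists, with scores of 16, 76, 112, 52 and 44 in the order untreated JM1, treated JM1, REH, 697 and Nalm6. Over the set, the highest-scored TSS peak carried another gene's name for 4 of 34 genes in untreated JM1, 9 of 45 in treated JM1, 7 of 45 in REH, 6 of 27 in 697 and 6 of 38 in Nalm6. The same shares over all genes were not measured, so these counts cannot be called high or low.

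Most peaks of the splicing genes lay at starts, and the share elsewhere was lower than over all genes. Counting pairs of a gene and a peak in its body or carrying its name, 13 of 59 were more than 1000 bp from any start of the gene in untreated JM1 (22.0%, against 53.2% of such pairs of all genes). The 697 list had 3 of 36 (8.33% against 38.0%), the Nalm6 list 26 of 76 (34.2% against 62.2%), the REH list 40 of 103 (38.8% against 63.2%) and the treated JM1 list 37 of 99 (37.4% against 64.8%). Gene length and the number of starts were not taken into account, and these shares were not tested. In the order untreated JM1, treated JM1, REH, 697 and Nalm6, the median scores of the distant peaks were 12, 16, 17.5, 14 and 19.5, against 19, 37, 50, 25 and 38 near starts. Over all genes distant peaks were also the lower ones, at 14, 17, 20, 18 and 19 against 17, 28, 35, 28 and 31 in the same order. At SF3B2, a partner of SF3B4 in anchoring U2 snRNP, a distant peak was the highest of the gene in treated JM1 (chr11:66067511-66070873, score 90, 2870 bp from the nearest start), in REH (51) and in Nalm6 (20). The authors named it for AP006287.2, and in treated JM1 the class was the transcription end. U2AF2 had its highest peak away from its starts in untreated JM1 (score 21, chr19:55673918-55675583) and in 697 (22), and HNRNPC in REH, in an intron (23). HNRNPA1L3, a copy with no TSS peak, had distant peaks of 25 in treated JM1 and 15 in REH, both intergenic and named for HNRNPA1P48.

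The 7 genes with no TSS peak in any list were U2AF1, HNRNPCL1 to HNRNPCL4, HNRNPA1L2 and HNRNPA1L3. The sequence at most of their starts is partly found elsewhere in the genome, which was measured as the share of 50-base words within 1000 bp of the primary start that occur more than once. The share was 95.0% at HNRNPCL4, 94.9% at HNRNPCL3, 89.8% at U2AF1, 37.9% at HNRNPCL2, 34.5% at HNRNPCL1 and 24.0% at HNRNPA1L2, and 0.0% at HNRNPA1L3. The highest share at a gene with a TSS peak was 9.89%, at HNRNPAB. At U2AF1, 1752 of 1952 words were repeated, and all of them were found in 1 further place, chr21:6498248-6500248, where no list had a peak within 1000 bp. The sources used here do not give how reads with more than 1 match were treated, and the part of repeated sequence in the missing peaks was not tested. HNRNPA1L2 has a RefSeq start upstream of the GENCODE one, and a REH peak overlapped the RefSeq window (chr13:52617275-52617574).

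**Figure D5:**
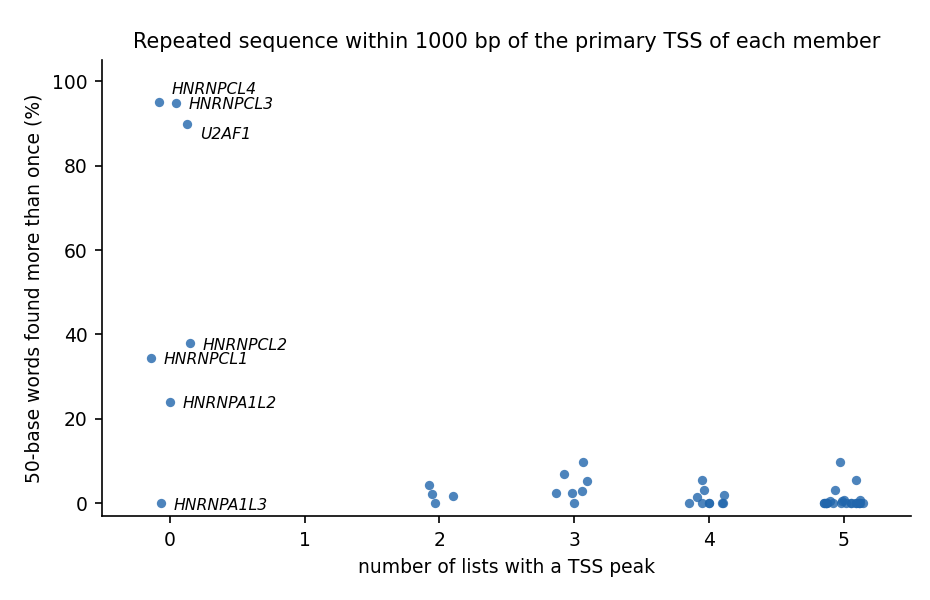
Each point is 1 of the 52 genes, with the number of lists in which it had a TSS peak on the horizontal axis (points are spread sideways for legibility) and the percentage of 50-base words found more than once in the genome on the vertical axis. Of the 7 genes at 0 lists, 6 lie between 24.0 and 95.0% and HNRNPA1L3 at 0.0%, and all genes with a TSS peak lie at or below 9.89%.

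Other splicing genes were taken from a list of 68. TSS peaks were present at 51 and 66 in untreated and treated JM1, 67 in REH, 61 in Nalm6 and 34 in 697, with 32 in all 5 lists and each of the 68 in at least 1. The shares of all genes were 58.7% and 81.2% in untreated and treated JM1, 81.7% in REH, 74.3% in Nalm6, 49.5% in 697 and 41.7% in all 5 lists. Of all genes, 14.7% had a TSS peak in no list. The 68 were chosen by name, and the shares of all genes include copies and read-through genes, so these are not like for like. In treated and not in untreated JM1 it was 16 of 68 (against 23.0%), and in the reverse 1 (against 0.564%), SNRPB2, a U2 snRNP protein with a score of 12. Of 10 genes for U1 and Sm proteins, 5 had one in untreated JM1 and 9 in treated JM1, and the highest scores were 40 at SNRPD3 and 187 at SNRNP70. Of 11 for proteins associated with U2 it was 9 and 10, with 34 at DDX42 and RBM17 untreated and 132 at RBM17 treated. SR kinases and related proteins had 11 and 14 of 14, with 36 at SRRM1 untreated and 154 at SRPK1, a kinase of SR proteins, treated. The tri-snRNP had 9 and 12 of 12 (23 at PRPF6, 103 at DDX23) and the minor spliceosome 4 and 7 of 7 (47 and 79, both at SNRNP48). Other RNA-binding proteins of hnRNP type had 13 and 14 of 14, with 76 at PCBP2 untreated and 251 at KHDRBS1 treated. In 697, 4 of 12 tri-snRNP genes and 12 of 14 hnRNP-type genes had one, against 49.5% of all genes. The other counts in 697 were 2 of 10 (U1 and Sm), 5 of 11 (U2), 8 of 14 (SR kinases and related) and 3 of 7 (minor spliceosome).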

How the data were processed

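The peak lists of 5 conditions were analysed, from 11 libraries (6 Ikaros and 5 input). The score of each peak was made by the authors and deposited as a whole number. Per the labels' protocols, reads were paired-end and BBDuk trimmed them. The submitters' processing notes name HOMER 4.10, MACS2 2.1.1, Bowtie2 2.3.4.3 and GRCh38. The sources used here do not give the control or settings of the calls, what the score is, or whether 1 or both Ikaros libraries of Nalm6 made its list. Lists were matched to groups by the line and treatment in their names.

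Starts were those of all GENCODE release 44 transcripts, the primary one being that of the Ensembl canonical transcript, and each gene was described by its highest-scored peak with any part within 1000 bp of a start. The percentile is the share of peaks of the list with a lower score, ties averaged. Shares have 95% exact Clopper-Pearson intervals. Promoter windows are from RefSeq (GRCh38.p14), and all 62 equalled the genome at their coordinates. Distant peaks are those in the gene body, or named for the gene, with no part within 1000 bp of a start. Repeated words were counted on both strands of the genome without alternate sequences. Python 3.11.15, pandas 2.3.3, numpy 2.4.6 and scipy 1.17.1 were used. The steps that tie peaks to starts and find overlaps between peaks were tested on simulated peaks.

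Genes were named by rule: SF3B1, SRSF2, U2AF1, ZRSR2, U2AF2 and SF1. To these were added the highest-scored gene of each family in each list, genes with a TSS peak in 1 JM1 list, genes with none in any list, genes whose highest peak was distant, and those with a neighbour on the opposite strand that met another rule. Other genes named were chosen after their values were seen. The genes, lists and rules were chosen with earlier results of these data known.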

Additional observations from a re-analysis of the deposited data

How the results depend on the processing

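Of the values recomputed under the alternatives, 64 counts were within 1.5 times the main count and 8 were not. The 20 medians stayed inside the main value's 95% interval, and of the shares 1 did and 8 did not. With a score of at least 20, the genes with a TSS peak came to 18 in untreated JM1 (against 26.5% of all genes), 24 in treated and not in untreated JM1 (against 45.7%), and 12 in all 5 lists (against 17.5%). With the authors' gene name and promoter class, 17 genes were counted in 697 (against 30.3%), 9 in all 5 lists (against 12.4%) and 6 in untreated and not in treated JM1 (against 9.26%). That last count was 2 with the peak's centre within 1000 bp (against 6.19%), and 3 without peaks wider than 5000 bp (against 8.37%), an alternative chosen after seeing the data. The share of untreated JM1 peaks overlapped by a treated one was 32.6% with a reciprocal overlap of 50%, and 100% of 20 peaks with a score of at least 20 in both lists. No share of all genes is given for either. The share of sequences with TGGGAA was 25.8% in promoter windows and, with the core GGGAA, 62.9%. In whole peaks, which are longer than a window, the TGGGAA share was 54.5% and 75.0% in untreated and treated JM1 (against 56.5% and 73.6% for all genes), 75.0% in REH (75.2%), 48.6% in Nalm6 (62.3%) and 46.2% in 697 (36.5%). No paired analysis was possible because each condition had 1 list and no result came from a test. Read depth was not analysed here, so a gene without a peak may lie below what a list could detect.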
